A study of Gallus gallus with 12 samples.

Results

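The genes described here encode the protein components of the cytosolic ribosome, among them RPL22. They were taken from the table of raw counts by symbol, as RPL or RPS followed directly by a digit or as RPSA, RPLP0, RPLP1 or RPLP2, and the S6 kinases, whose symbols begin with RPS6K, were left out. The rule found 71 of the 16161 genes in the table. Of these, 40 were large-subunit symbols, 27 were small-subunit symbols and 3 encode the acidic stalk. The remaining symbol, RPS19BP1, encodes a protein that binds RPS19 and is not itself a ribosomal protein. It was kept in the counts of ribosomal protein genes below. No row carried the symbol RPSA. All 71 symbols were matched to the RefSeq annotation of GRCg7b, where they lie on 28 chromosomes.

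Ribosomal proteins assemble in the nucleolus on ribosomal RNA into a small subunit, which reads the mRNA, and a large subunit, which forms the peptide bonds. Their mRNAs are among the most abundant in growing cells, and most begin with a terminal oligopyrimidine (TOP) tract through which mTOR signalling adjusts their translation together. A few members have close paralogues, and RPL22 is one of them. Its protein binds RNA on the outer face of the large subunit and is dispensable for general translation in mouse, where loss of Rpl22 is accompanied by higher levels of its paralogue Rpl22l1.

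RNA-seq was performed in HD11, a macrophage-like chicken cell line transformed by an avian virus that carries the v-myc oncogene. In the SeMC+PBS group, the cells were seeded in medium with 100 µM Se-methylselenocysteine (SeMC), a selenium-containing amino acid, 12 h before the time of challenge, and received phosphate-buffered saline (PBS) in place of lipopolysaccharide (LPS). In the LPS group, the cells were stimulated for 6 h with 100 ng/mL LPS, a glycolipid of Gram-negative bacteria that macrophages sense. The Control group received PBS. Each group had 3 libraries. The SeMC+LPS group was not compared. Its deposited count was the rounded-down mean of the LPS and SeMC+PBS counts of that replicate number, in each of the 3 replicates, for 71 of the 71 ribosomal protein genes and for 16160 of the 16161 genes in the table. Nothing in the labels says that the replicates were separate cultures, so the p-values measure the spread between these libraries, which may be technical.

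The total count was 10656332 to 11531551 in SeMC+PBS, 13451069 to 14018893 in LPS and 14972385 to 17024392 in Control, so that depth moved with the groups. Its part in the results was not tested beyond the scaling alternatives. The macrophage label was checked with 15 marker genes, of which 14 were in the table, all with a mean of at least 10 counts. Their summed level was 4857 to 5216 CPM (counts scaled to a common library size) in SeMC+PBS, 6747 to 7189 CPM in LPS and 5371 to 5701 CPM in Control. A list of 9 genes of the LPS response, 7 of them in the table, summed to 229.7 to 248.9 CPM in SeMC+PBS, 2320 to 2477 CPM in LPS and 231 to 240.7 CPM in Control. The part of these differences in the results below was not tested. The summed markers of T cells, B cells, fibroblasts, epithelium and erythroid cells each stayed at or below 18.1 CPM in every library. In that order, only 3 of 5, 2 of 5, 2 of 6, 2 of 5 and 1 of 4 markers were in the table. These sums therefore rest on few genes. For CPM, each library size was adjusted by TMM, which sets a gene against the bulk of other genes in its library. In bulk RNA, fewer cells of a type and less RNA per cell cannot be told apart.

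Of the 71 genes, 70 had enough counts to be tested in each of the 3 comparisons. The exception was RPL3L, a paralogue of RPL3 that in mammals is used in muscle. It had 0, 0 and 0 counts in SeMC+PBS, 6, 2 and 1 counts in LPS and 2, 1 and 6 counts in Control, and a library with 0 counts allows up to 3. The family as a whole took 2.60%, 2.52% and 2.59% of all counts in SeMC+PBS, 2.66%, 2.84% and 2.78% in LPS and 2.90%, 2.52% and 2.86% in Control, in libraries 1, 2 and 3 of each group. Control library 2 stood apart from its group, with a share close to that of the SeMC+PBS libraries. In it, all 70 genes tested were below their Control mean, with a median deviation of -0.14 on the log2 scale, against 0.07 and 0.07 in the other Control libraries.

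Many ribosomal protein mRNAs were slightly lower in SeMC+PBS than in Control, and RPL22 was strongly lower. In SeMC+PBS/CTR, 28 of the 70 genes tested (40%) were lower at FDR under 0.05 and 1, RPS16, was higher, by the quasi-likelihood test of edgeR, with p adjusted over all genes by Benjamini-Hochberg. Across all 13146 genes tested, 19.1% were lower and 20.3% were higher by the same rule. All 70 ribosomal protein genes averaged 100 counts or more, as did 9893 of the 13146. With more counts, a smaller change can pass the FDR. Here and below, the shares of all genes were not matched for count level, and its part in the shares passing was not tested. The median log2 fold change of the ribosomal protein genes was -0.16, with 60 negative and 10 positive values. The median of all genes tested was 0.001. By library, the median log2 deviation from the Control mean was -0.11, -0.23 and -0.14 in SeMC+PBS and 0.07, -0.14 and 0.07 in Control. SeMC+PBS library 1 lay above Control library 2, so the groups overlapped in this measure. The genes can move together within a library, so the 60 negative values are not 60 separate observations. Most of the changes were small, since the quartiles lay at -0.26 and -0.05 on the log2 scale. With the additional requirement of a fold change above 1.5, only RPL22 and RPS27 were called, both lower, which is 2.86% of the family against 14.1% of all genes, of which 5.58% lower and 8.5% higher. The 3 libraries of each group did not overlap for 27 lower genes and 1 higher gene, RPS19BP1, against 25.9% of all genes lower and 25.1% higher. In the large subunit 17 of 39 genes were lower, in the small subunit 10 of 27 and in the stalk 1 of 3, namely RPLP1.

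These counts depend on the Control libraries and on the method. The number of lower genes was 39 without Control library 2 and 18 without Control library 3, and limma after quantile normalization found 4. The shares of all genes in these fits were not computed. A change in the power of the whole fit therefore cannot be told from a change in the family. The family share of all counts averaged 2.57% ± 0.0470 in SeMC+PBS and 2.76% ± 0.209 in Control (SD, n = 3 each), a difference of -0.194 percentage points that did not pass a two-sided exact permutation test (p = 0.3, where the smallest p that 3 against 3 can give is 0.1).

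**Figure D1:**
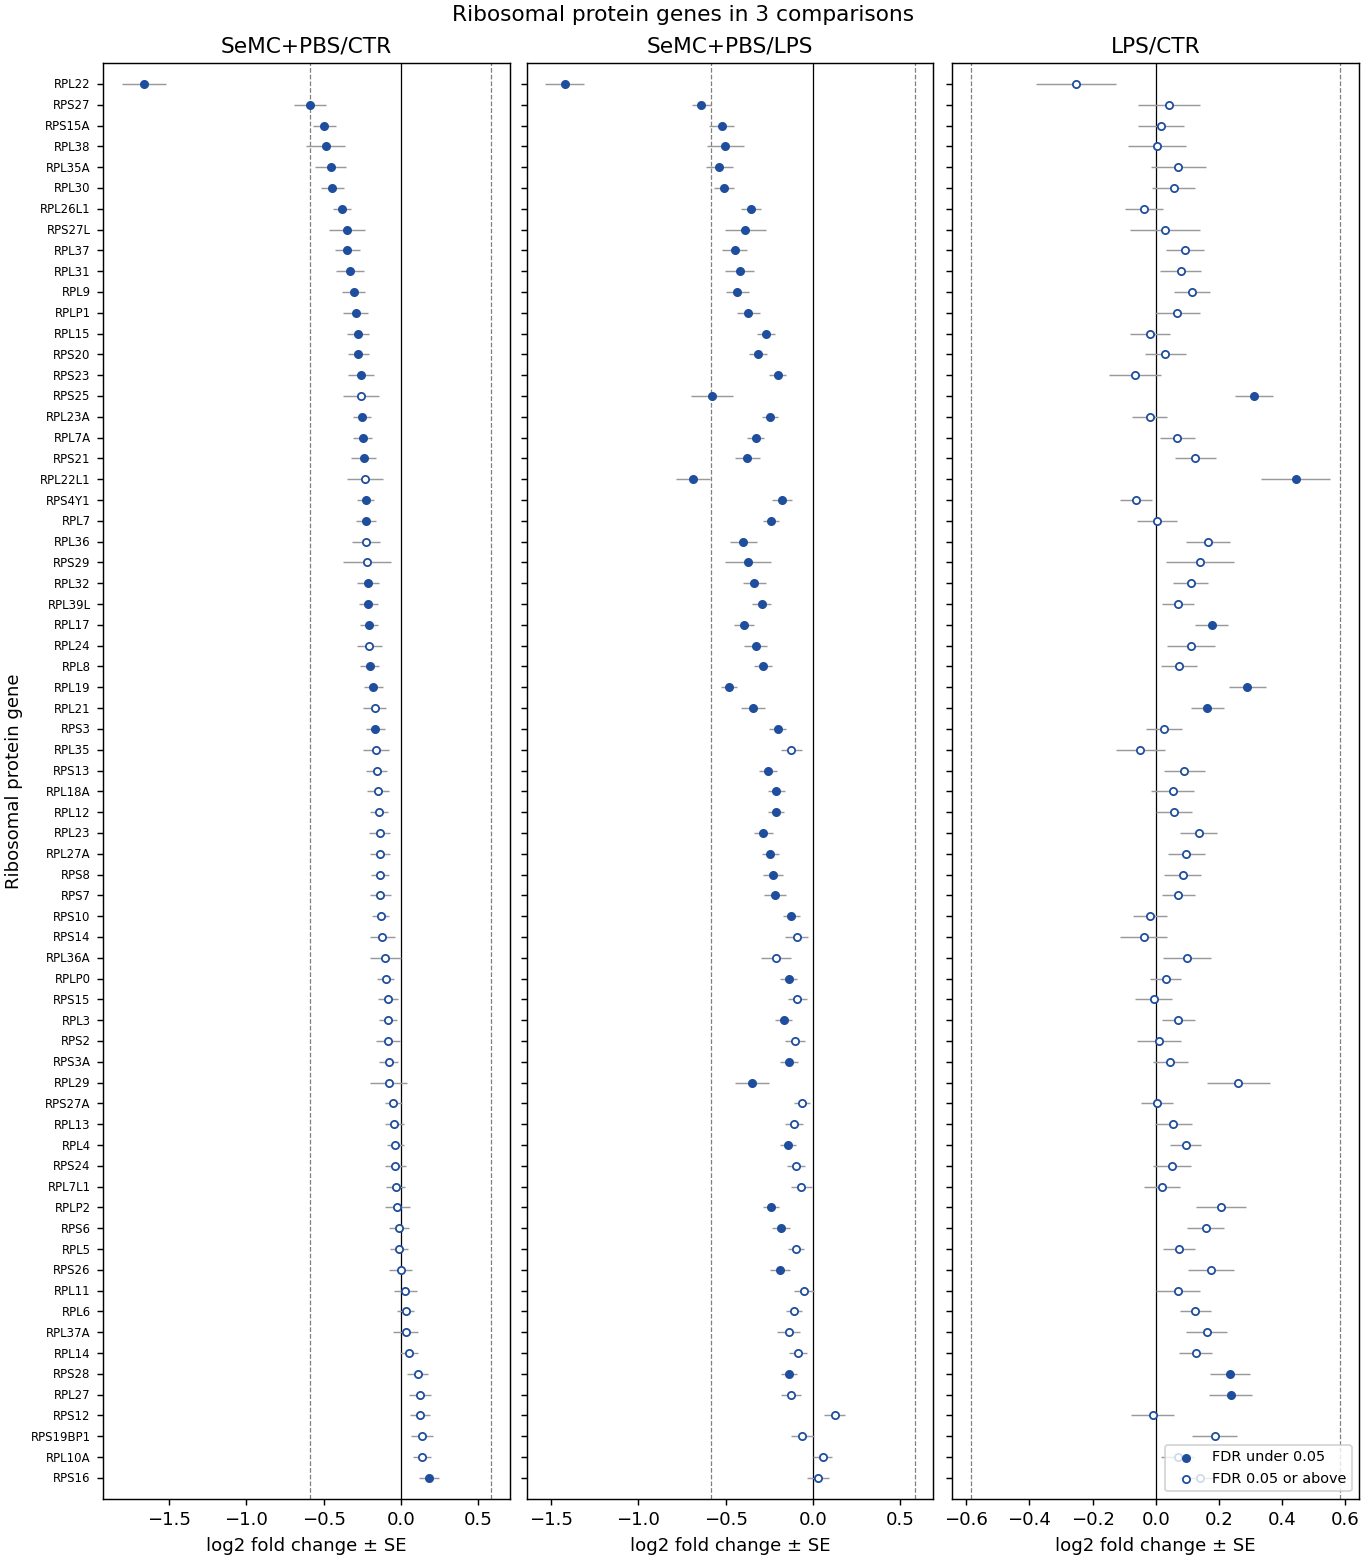
Log2 fold change ± SE (x axis) of 68 of the 70 ribosomal protein genes tested (rows, ordered by SeMC+PBS/CTR) in SeMC+PBS/CTR, SeMC+PBS/LPS and LPS/CTR, with filled points at FDR under 0.05 and dashed lines at a fold change of 1.5. The axis of the LPS/CTR panel spans a narrower range than the others. RPL22 lies apart on the left at -1.66 and -1.42 in the SeMC+PBS comparisons, where most other genes are slightly below 0.

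RPL22 showed the strongest change of the family. The gene lies at chr21:630709-633432 on GRCg7b and overlaps no other annotated gene. Its level was 39.6, 29.2 and 38.5 CPM in the SeMC+PBS libraries (466, 322 and 444 counts), 106, 85.1 and 92.6 CPM in LPS (1367, 1153 and 1230 counts) and 144, 106 and 91.2 CPM in Control (2167, 1614 and 1565 counts). Every SeMC+PBS library was below every LPS and Control library, whereas the LPS and Control libraries overlapped. The group means were 35.7 ± 5.70 CPM in SeMC+PBS, 94.5 ± 10.4 CPM in LPS and 114 ± 27.3 CPM in Control (SD, n = 3 each). RPL22 fell to 0.316 of the Control level in SeMC+PBS, a log2 fold change of -1.66 ± 0.141 (SE) with an FDR of 1.31e-06. It was also lower in SeMC+PBS than in LPS, with a log2 fold change of -1.42 ± 0.110 and an FDR of 2.24e-07. In LPS/CTR its log2 fold change of -0.25 ± 0.128 did not pass the threshold (FDR = 0.145), although it did without LPS library 1 (-0.35, FDR = 0.0395) and without Control library 3 (-0.39, FDR = 0.0232). Over all leave-outs of a library this value ranged from -0.39 to -0.05, and DESeq2 gave an FDR of 0.407.

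Among all genes, the fall of RPL22 in SeMC+PBS/CTR was the 152nd lowest of 13146. Many of the lower ones were genes with few counts, and of the 9893 genes averaging 100 counts or more RPL22 was the 2nd lowest. In SeMC+PBS/LPS it ranked 135 of 9894 by the same measure, and in LPS/CTR 1702 of 9894. Leaving out each library in turn moved its log2 fold change between -1.81 and -1.46 in SeMC+PBS/CTR and between -1.50 and -1.30 in SeMC+PBS/LPS, with every call kept.

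**Figure D2:**
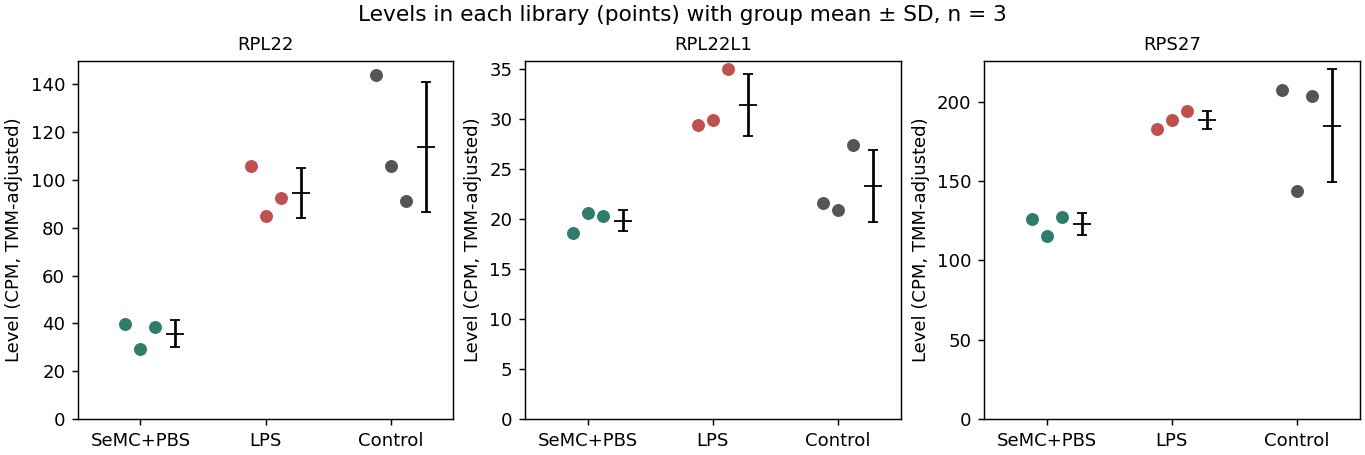
Level in CPM on the y axis of RPL22, RPL22L1 and RPS27 in each of the 3 SeMC+PBS, 3 LPS and 3 Control libraries (points), with the group mean and SD beside them. The SeMC+PBS points of RPL22, at 29.2 to 39.6 CPM, lie below all others, and the LPS points of RPL22L1, at 29.4 to 34.9 CPM, lie above all others.

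Set against the family within each library, RPL22 stood out in the same way. It made up 0.155%, 0.120% and 0.153% of the ribosomal protein counts in the SeMC+PBS libraries, 0.383%, 0.290% and 0.321% in LPS and 0.498%, 0.422% and 0.321% in Control. The SeMC+PBS libraries did not overlap the others, and LPS library 3 and Control library 3 were nearly equal. The mean share was 0.143% ± 0.0195 in SeMC+PBS, 0.331% ± 0.0470 in LPS and 0.414% ± 0.0888 in Control (SD, n = 3 each). The two-sided exact permutation test gave p = 0.1 for SeMC+PBS against Control and against LPS, the smallest p possible here, and p = 0.3 for LPS against Control. A fit with the summed ribosomal protein counts as library size gave RPL22 a log2 fold change of -1.53 ± 0.122 in SeMC+PBS/CTR (FDR = 1.01e-13) and of -1.21 ± 0.117 in SeMC+PBS/LPS (FDR = 3.66e-06).

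RPL22L1, the paralogue of RPL22, lies at chr9:19425952-19427972 and followed another pattern. Its level was 18.6, 20.6 and 20.3 CPM in SeMC+PBS, 29.4, 29.8 and 34.9 CPM in LPS and 21.5, 20.9 and 27.4 CPM in Control. The LPS libraries were above all others, and the SeMC+PBS libraries were just below the Control libraries without overlap. RPL22L1 was higher in LPS than in Control, with a log2 fold change of 0.44 ± 0.109 (FDR = 0.00536), and lower in SeMC+PBS than in LPS, with -0.69 ± 0.0964 (FDR = 6.00e-05). Its log2 fold change of -0.23 ± 0.114 in SeMC+PBS/CTR did not pass the threshold (FDR = 0.115). The difference in LPS/CTR did not pass without LPS library 3 (0.35, FDR = 0.0546) or with limma after quantile normalization (0.45, FDR = 0.0828). Relative to the family, the log2 fold change in SeMC+PBS/CTR was -0.10 ± 0.126 (FDR = 0.571), and the shares of the ribosomal protein counts overlapped, at 0.0730% to 0.0847% in SeMC+PBS and 0.0745% to 0.0965% in Control.

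The count ratio of RPL22 to RPL22L1, which needs no scaling between libraries, was 2.13, 1.42 and 1.90 in SeMC+PBS, 3.60, 2.85 and 2.65 in LPS and 6.69, 5.08 and 3.33 in Control. The SeMC+PBS ratios were below all others, and the LPS and Control ratios overlapped. The mean ratio was 1.82 ± 0.362 in SeMC+PBS, 3.03 ± 0.498 in LPS and 5.03 ± 1.68 in Control (SD, n = 3 each). The exact permutation p was 0.1 for SeMC+PBS against Control and against LPS, and 0.2 for LPS against Control. The Control libraries spread widely in this ratio.

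**Figure D3:**
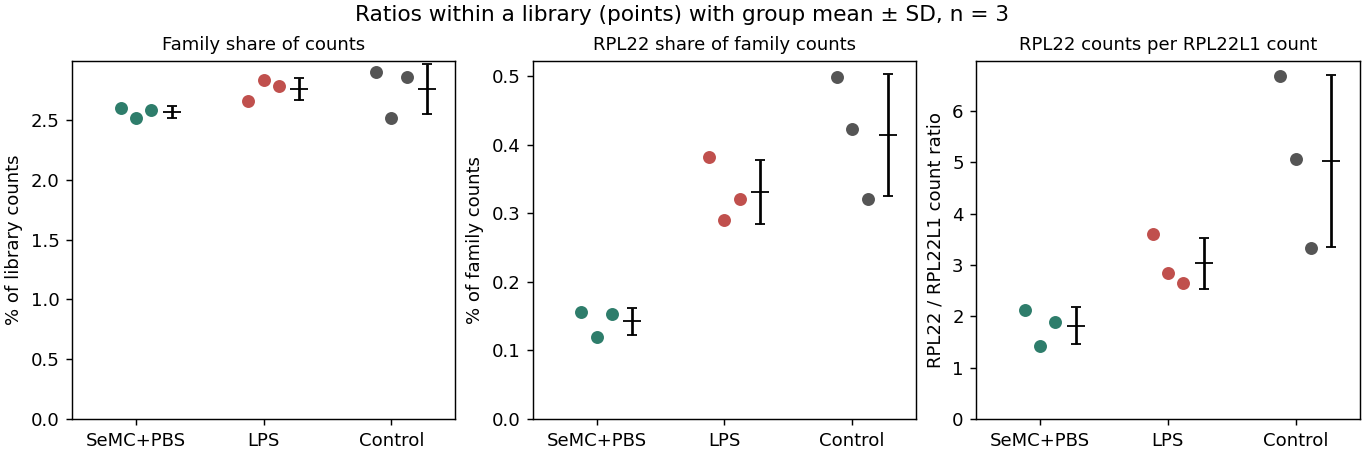
Family share of all counts in percent, RPL22 share of the family counts in percent and count ratio of RPL22 to RPL22L1 (y axes, from 0) in each SeMC+PBS, LPS and Control library (points), with the group mean and SD. The family share lies at 2.52% to 2.90% in all 9 libraries, while the RPL22 share is 0.120% to 0.155% in SeMC+PBS and at least 0.290% elsewhere.

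The genes directly beside RPL22 on chromosome 21 were higher, not lower, in SeMC+PBS. RNF207, which encodes a RING-finger protein and ends 292 bp before RPL22, was higher in SeMC+PBS than in Control, with a log2 fold change of 1.00 ± 0.131 (FDR = 5.66e-05), and higher than in LPS, with 1.43 ± 0.191 (FDR = 3.90e-05). CHD5, which encodes a chromatin remodeller and begins 61 bp after RPL22, had log2 fold changes of 0.36 ± 0.0989 in SeMC+PBS/CTR (FDR = 0.00999) and 0.31 ± 0.0868 in SeMC+PBS/LPS (FDR = 0.00813). Of the next genes out, ICMT had -0.20 (FDR = 0.0386), ACOT7 0.10 (FDR = 0.201) and KCNAB2 -0.10 (FDR = 0.194) in SeMC+PBS/CTR. Farther out, 29200 bp after RPL22 and within the span of KCNAB2, the uncharacterized LOC121107367 had 99, 115 and 66 counts in SeMC+PBS, 3, 12 and 10 counts in LPS and 4, 9 and 7 counts in Control. Its log2 fold change was 4.25 ± 0.347 in SeMC+PBS/CTR (FDR = 8.42e-07) and 3.66 ± 0.369 in SeMC+PBS/LPS (FDR = 3.07e-06).

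RPS27, a zinc-finger protein of the small subunit, was the other gene called in SeMC+PBS/CTR. It lies at chr25:1852248-1853185, where it overlaps NUP210L. Its level was 126, 115 and 127 CPM in SeMC+PBS, 183, 188.5 and 194 CPM in LPS and 207, 144 and 203 CPM in Control. The SeMC+PBS libraries were the lowest, and Control library 2 was below the LPS libraries. The log2 fold change was -0.59 ± 0.102 in SeMC+PBS/CTR (FDR = 0.000477) and -0.64 ± 0.0546 in SeMC+PBS/LPS (FDR = 6.17e-07). In SeMC+PBS/CTR its ratio of 0.666 is at the edge of the 1.5-fold requirement, and the call was lost with limma-voom (-0.57), limma after quantile normalization (-0.57), without Control library 1 (-0.50), Control library 3 (-0.52) or SeMC+PBS library 2 (-0.54). Its call in SeMC+PBS/LPS was lost with limma after quantile normalization (-0.56). NUP210L had a mean of 70.6 counts per library, against 2279 for RPS27, and its log2 fold change in SeMC+PBS/CTR was 0.46 (FDR = 0.0747). The paralogue RPS27L, which responds to p53 in human cells, had 17.8, 14.1 and 15.4 CPM in SeMC+PBS, 18.2, 22.2 and 20.7 CPM in LPS and 21.4, 17.5 and 21.6 CPM in Control. It was lower in SeMC+PBS/CTR by the FDR, with a log2 fold change of -0.35 ± 0.119 (FDR = 0.0297), although SeMC+PBS library 1 lay above Control library 2. It did not pass with DESeq2 (FDR = 0.0527), with limma after quantile normalization or without Control library 1, Control library 3, SeMC+PBS library 2 or SeMC+PBS library 3.

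Below RPL22 and RPS27 came a group of genes with SeMC+PBS/CTR log2 fold changes near -0.5. RPS15A, a protein of the small subunit body, had 159, 139 and 159 CPM in SeMC+PBS and 230, 191 and 224 CPM in Control, a log2 fold change of -0.49 ± 0.0731 (FDR = 0.000136). RPL38, which in mouse affects the translation of Hox mRNAs, had 78.6, 56.6 and 82.2 CPM in SeMC+PBS and 108, 82.5 and 115 CPM in Control, a log2 fold change of -0.49 ± 0.123 (FDR = 0.00588). In both genes every SeMC+PBS library was below every Control library, narrowly so for RPL38. RPL38 did not pass without Control library 3 (FDR = 0.0505), with DESeq2 (FDR = 0.0569) or with limma after quantile normalization (FDR = 0.139). Both were also lower in SeMC+PBS than in LPS, with log2 fold changes of -0.52 for RPS15A and -0.50 for RPL38. The value of RPL38 did not pass with limma after quantile normalization (FDR = 0.0663). RPL35A, one of the genes mutated in human Diamond-Blackfan anaemia, followed with -0.45 (FDR = 0.00269), and RPL30 with -0.44 (FDR = 0.000288). Values under the alternatives are not given for RPL35A and RPL30. Limma after quantile normalization left 4 lower genes in the whole family. RPL35A overlaps IQCG, which had a mean of 12.6 counts.

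At the other end, RPS16, a small-subunit protein near the peptidyl site, was higher in SeMC+PBS than in Control. Its level was 609, 581 and 636 CPM in SeMC+PBS, 533, 626 and 602 CPM in LPS and 586, 493 and 534 CPM in Control. The log2 fold change was 0.18 ± 0.0648 (FDR = 0.0358), but the lowest SeMC+PBS library was below the highest Control library. It no longer passed without Control library 2, Control library 3, SeMC+PBS library 1 or SeMC+PBS library 3, nor with limma after quantile normalization. RPL10A had 286, 294 and 271 CPM in SeMC+PBS and 256, 248 and 272 CPM in Control, with a log2 fold change of 0.14 (FDR = 0.0683). RPS19BP1, RPS12 and RPL27 had 0.14, 0.13 and 0.12, with FDRs of 0.153, 0.136 and 0.195.

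Relative to the family as a whole, 9 genes (12.9%) were lower and 6 (8.57%) were higher in SeMC+PBS/CTR at FDR under 0.05. Of all genes, 7.54% were lower and 27.9% higher on this scale. The scale holds the summed family counts equal, so these shares of all genes shift with the family and are no baseline for it. The lower ribosomal protein genes included RPL22, RPS27, RPS15A, RPL38, RPL35A, RPL30 and RPL26L1. The higher ones were RPS16, RPL10A, RPS12, RPL27 and RPS28, together with RPS19BP1, which is counted with the family only by its symbol. Apart from RPL22, their log2 fold changes relative to the family ran from -0.45 to 0.31. RPS16 had the highest of these, at 0.31 ± 0.0878 (FDR = 0.00444).

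**Figure D4:**
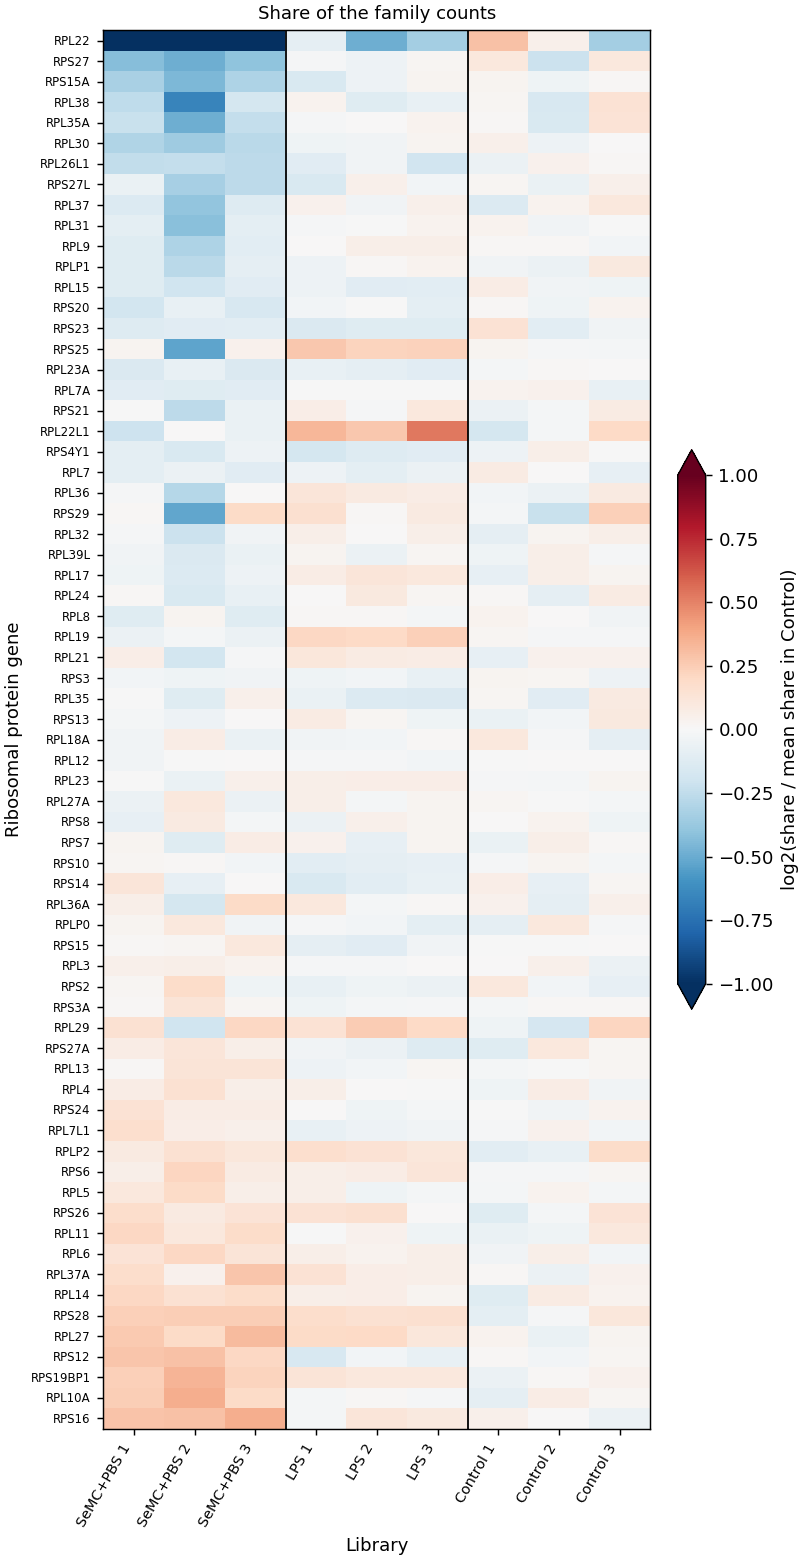
Log2 ratio of each gene's share of the ribosomal protein counts to its mean share in Control (colour, limited to -1 to 1), with 68 of the 70 genes tested in rows and the SeMC+PBS, LPS and Control libraries in columns. RPL22 is darkest blue in the 3 SeMC+PBS libraries, and SeMC+PBS library 2 is also low in RPL38, RPS25 and RPS29.

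The spread between replicates differed by group. The median coefficient of variation of the ribosomal protein genes was 5.36% in SeMC+PBS, 3.55% in LPS and 9.18% in Control, whereas that of the 9893 genes averaging 100 counts or more was 5.91%, 5.49% and 5.85% in the same groups. The highest values in SeMC+PBS were those of RPS29 (25.9%), RPS25 (22.9%) and RPL38 (19.1%). RPS29, a zinc-finger protein of the small subunit, had 139, 91.2 and 155 CPM in SeMC+PBS, 166, 159 and 166 CPM in LPS and 154, 116 and 180.5 CPM in Control, so that library 2 was the low one in both SeMC+PBS and Control. In Control the most variable gene was RPL22 (24.0%). The libraries labelled 2 in these groups were the lowest in median ribosomal protein level, at -0.23 in SeMC+PBS and -0.14 in Control on the log2 scale relative to the Control mean.

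The direct comparison of the treatments gave the most genes past the FDR and the largest median log2 fold change in size. The family share differed about equally, by -0.191 percentage points from LPS and -0.194 from Control. The LPS libraries also spread less than Control, with a median coefficient of variation of 3.55% against 9.18%. The part of this spread in the number of genes passing was not tested. In SeMC+PBS/LPS, 51 of the 70 genes (72.9%) were lower at FDR under 0.05 and 0 were higher, against 27.1% of all genes lower and 27.2% higher. The count level was again not matched. At an unadjusted p under 0.05, 55 genes were lower and 0 higher, and the higher count was 0 with DESeq2 and limma-voom and 1 with limma after quantile normalization. For these rules the shares of all genes were not computed. The median log2 fold change was -0.24, with 67 negative and 3 positive values, and the groups did not overlap for 53 lower genes and 1 higher gene, RPS12, against 29.4% and 32.1% of all genes. By subunit, 28 of 39 large-subunit genes, 20 of 27 small-subunit genes and 3 of 3 stalk genes were lower. RPL22, RPL22L1 and RPS27 were called with a fold change above 1.5, all lower, which is 4.29% of the family against 22.9% of all genes, of which 10.4% lower and 12.5% higher.

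RPS25, which in yeast and mammals takes part in initiation on viral internal ribosome entry sites, had 177, 115 and 177 CPM in SeMC+PBS, 227, 234 and 230.4 CPM in LPS and 201, 170.1 and 191 CPM in Control. SeMC+PBS library 2 was far below the others, and the LPS libraries were above all others. The log2 fold change in SeMC+PBS/LPS was -0.58 ± 0.118 (FDR = 0.00112), just under the 1.5-fold limit. It did not pass with limma after quantile normalization (FDR = 0.0942). RPL19, a large-subunit protein that contacts the small subunit, had 449.7, 439.9 and 445 CPM in SeMC+PBS, 588, 619 and 625 CPM in LPS and 539, 456 and 518 CPM in Control. The SeMC+PBS libraries were tightly grouped and below all others, but only narrowly below Control library 2. In SeMC+PBS/CTR its log2 fold change was -0.18 ± 0.0620 (FDR = 0.0315). It did not pass there with limma after quantile normalization or without Control library 1, Control library 3, or SeMC+PBS library 1, 2 or 3. Its log2 fold change in SeMC+PBS/LPS was -0.48 ± 0.0472 (FDR = 2.40e-06).

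The family share was 2.57% ± 0.0470 in SeMC+PBS and 2.76% ± 0.0922 in LPS (SD, n = 3 each), with no overlap and an exact permutation p of 0.1, the smallest possible. Limma on quantile-normalized values found 11 lower genes and a median of -0.13. Relative to the family, 7 genes (10%) were higher and 18 (25.7%) were lower. Of all genes, 46% were higher and 13.6% lower on this scale, shares that shift with the family and are no baseline for it.

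LPS on its own moved the family little. In LPS/CTR, 0 of the 70 genes were called with a fold change above 1.5, against 12% of all genes, of which 6.13% higher and 5.92% lower. No gene passed that fold at an unadjusted p under 0.05 either, and DESeq2, limma-voom and limma after quantile normalization also called 0. Without the fold requirement, 7 genes (10%) were higher and 0 were lower, against 18% and 16.5% of all genes, so the share of the family that passed was below that of all genes. At an unadjusted p under 0.05, 17 were higher and 0 lower. DESeq2 found 9 higher, limma-voom 12 and limma after quantile normalization 0, and each found 0 lower. The shares of all genes by these rules were not computed, so these counts show only how the family count moved with the method. The groups did not overlap for 13 higher genes and 0 lower genes, against 22.8% and 23.7% of all genes.

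The median log2 fold change in LPS/CTR was 0.07, with 58 positive and 12 negative values, but it was -0.0013 without Control library 2 and -0.023 with quantile-normalized values. The number of higher genes was 3 without LPS library 2, 3 without LPS library 3, 4 without Control library 2 and 16 without Control library 3. The family share was 2.76% in LPS and in Control, with an exact permutation p of 1.0.

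The 7 higher genes in LPS/CTR were RPL22L1, RPS25, RPL19, RPL27, RPS28, RPL17 and RPL21. RPS25 had a log2 fold change of 0.31 ± 0.0595 (FDR = 0.000823), with all 3 LPS libraries above all 3 Control libraries. RPL19 had 0.29 ± 0.0591 (FDR = 0.00138), again without overlap. RPL27 had 374, 399.5 and 371 CPM in LPS and 351, 285 and 344 CPM in Control, a log2 fold change of 0.24 ± 0.0680 (FDR = 0.0135) that did not pass without LPS library 2 (FDR = 0.0866). RPL29 had 145, 166 and 157 CPM in LPS and 133, 106 and 155 CPM in Control, and its 0.26 ± 0.10 did not pass the threshold (FDR = 0.0558). It did pass with limma-voom (FDR = 0.0454), without LPS library 1 (FDR = 0.0331) and without Control library 3 (FDR = 0.00578). With DESeq2 (FDR = 0.234) and TMM without the members (FDR = 0.0811) it did not. Over all leave-outs of a library its value ranged from 0.12 to 0.40. Relative to the family, RPL22L1 (0.37, FDR = 0.0256), RPS25 (0.24, FDR = 0.0259) and RPL19 (0.22, FDR = 0.0272) were higher (4.29%) and 0 were lower. Of all genes, 10.3% were higher and 16.8% lower on this scale, shares that shift with the family. Low values besides that of RPL22 were -0.07 for RPS23, a protein of the decoding centre, -0.06 for RPS4Y1 and -0.05 for RPL35, a protein at the exit tunnel, with FDRs from 0.383 to 0.665. Without Control library 2, RPS23 (-0.18, FDR = 0.0392) and RPL35 (-0.17, FDR = 0.0213) did pass the FDR as lower.

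Several symbols carry the names of mammalian paralogues. RefSeq lists RPL26 as a synonym of RPL26L1, RPL39 as a synonym of RPL39L and RPS4X as a synonym of RPS4Y1, which lies on chromosome 4. RPL26L1, which overlaps ERGIC1, had 173, 166 and 169.6 CPM in SeMC+PBS, 206, 231 and 204 CPM in LPS and 224, 208 and 231 CPM in Control. The SeMC+PBS libraries were below all others, with a log2 fold change of -0.38 ± 0.0563 in SeMC+PBS/CTR (FDR = 0.000134). ERGIC1 had nearly as many counts as RPL26L1, with means of 2630 and 2761, and its log2 fold change there was 0.04 (FDR = 0.578). RPL39L, a protein of the exit tunnel, had -0.21 ± 0.0601 (FDR = 0.0117, and 0.0501 without SeMC+PBS library 2), and RPS4Y1 had -0.23 ± 0.0579 (FDR = 0.00587). Neither passed with limma after quantile normalization. RPL7L1, a nucleolar paralogue of RPL7 that takes part in ribosome assembly, had 152, 135 and 139 CPM in SeMC+PBS, 139, 151 and 149 CPM in LPS and 152, 137 and 148 CPM in Control. Its groups overlapped in every comparison, and its log2 fold change in SeMC+PBS/CTR was -0.04 ± 0.0620 (FDR = 0.677). RPSAP58, which RefSeq lists with the synonym RPSA and which lies outside the symbol rule, had log2 fold changes of -0.06 (FDR = 0.397) in SeMC+PBS/CTR and -0.14 (FDR = 0.0327) in SeMC+PBS/LPS.

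In all, 32 of the 71 genes overlap another annotated gene, mostly small nucleolar RNAs in their introns, and 8 overlap a protein-coding gene. Whether the counting used strand is not given in the sources used here, so reads of overlapping genes may have been assigned to either or dropped, and these levels are uncertain.

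Genes of related functions were set beside the family. Of 20 translation factors and other genes with TOP mRNAs in the table, 8 (40%) were lower and 2 (10%) higher in SeMC+PBS/CTR at FDR under 0.05, against 19.1% and 20.3% of all genes, with a median log2 fold change of -0.03. NACA, a chaperone of nascent chains, had -0.34 (FDR = 0.00133), TPT1 -0.33 (FDR = 0.000660) and RACK1, a scaffold on the small subunit, -0.27 (FDR = 0.00135). EIF4B, an initiation factor, was higher with 0.38 (FDR = 0.000286). In SeMC+PBS/LPS 13 (65%) were lower and 1 (5%) was higher, against 27.1% and 27.2% of all genes, with a median of -0.20. In LPS/CTR 7 (35%) were higher and 0 lower, against 18% and 16.5% of all genes, with a median of 0.13. None of the 20 was called with a fold change above 1.5 in any comparison, whereas 12% to 22.9% of all genes were.

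The 37 genes of ribosome biogenesis and the 73 genes of the mitochondrial ribosome were more evenly divided. In SeMC+PBS/CTR 10 biogenesis genes (27.0%) were higher and 5 (13.5%) lower, against 20.3% and 19.1% of all genes, with a median of 0.03, and RRS1 (0.89, FDR = 1.70e-06), an assembly factor of the large subunit, and NOP56 (0.60, FDR = 9.78e-06), a core protein of box C/D snoRNPs, were called. In SeMC+PBS/LPS 8 (21.6%) were higher and 4 (10.8%) lower, against 27.2% and 27.1% of all genes, with NOP56 called higher (0.60) and WDR12, a factor of large-subunit processing, called lower (-0.62). In LPS/CTR 6 (16.2%) were higher and 2 (5.41%) lower, against 18% and 16.5% of all genes. Of the mitochondrial ribosomal proteins, 17 (23.3%) were higher and 10 (13.7%) lower in SeMC+PBS/CTR, near the shares of all genes, with a median of 0.04, and MRPL16 (0.79, FDR = 2.41e-06) and MRPL49 (0.72, FDR = 0.00361) were called. Of the same genes, 15 (20.5%) were higher and 13 (17.8%) lower in SeMC+PBS/LPS, against 27.2% and 27.1% of all genes, with a median of 0.01. In LPS/CTR 6 (8.22%) were higher and 3 (4.11%) lower, each share below that of all genes. In LPS/CTR MRPL49 was called (0.65, FDR = 0.00728). By the same rule, 14.1% of all genes were called in SeMC+PBS/CTR, 22.9% in SeMC+PBS/LPS and 12% in LPS/CTR.

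Of 13 assembly chaperones, S6 kinases and mTOR pathway genes, only RPS6KA2 and RPS6KB1 were called. RPS6KA1, RPS6KA3 and RPS6KB2 were not called in any comparison. The list had 1 gene called in SeMC+PBS/CTR, 1 higher and 1 lower in SeMC+PBS/LPS, and 1 in LPS/CTR. Of all genes, 14.1%, 22.9% and 12% were called in these comparisons. At FDR under 0.05 without the fold requirement, 2 (15.4%) were higher and 1 (7.69%) lower in SeMC+PBS/CTR, against 20.3% and 19.1% of all genes. In SeMC+PBS/LPS 4 (30.8%) were higher and 4 (30.8%) lower, against 27.2% and 27.1% of all genes. In LPS/CTR 4 (30.8%) were higher and 2 (15.4%) lower, against 18% and 16.5% of all genes. RPS6KA2, a kinase downstream of ERK, was higher in SeMC+PBS/CTR (0.77, FDR = 5.35e-05) and in SeMC+PBS/LPS (0.89, FDR = 1.11e-05). RPS6KB1, which phosphorylates RPS6 downstream of mTOR, was higher in LPS/CTR (0.72, FDR = 5.50e-08) and lower in SeMC+PBS/LPS (-0.65, FDR = 2.14e-07). RPS6 itself had log2 fold changes of -0.01 in SeMC+PBS/CTR (FDR = 0.886) and 0.16 in LPS/CTR (FDR = 0.0526). Since SeMC+PBS/CTR and LPS/CTR share the Control libraries, their values are set side by side and were not correlated.

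**Figure D5:**
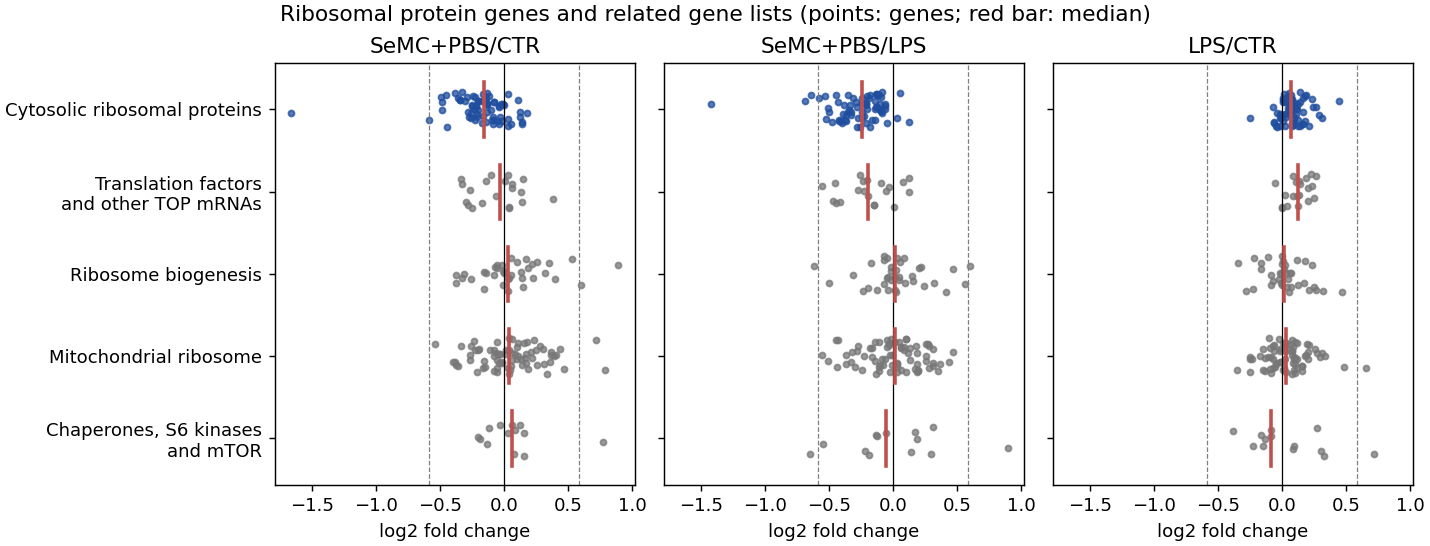
Log2 fold change (x axis) of single genes (points) and median (red bar) for the cytosolic ribosomal proteins and 4 related lists (rows) in SeMC+PBS/CTR, SeMC+PBS/LPS and LPS/CTR, with dashed lines at a fold change of 1.5. The ribosomal protein medians are -0.16, -0.24 and 0.07 in these comparisons, and those of the translation factors and other TOP mRNAs are -0.03, -0.20 and 0.13. The biogenesis and mitochondrial ribosome medians lie between 0.01 and 0.04. Those of the chaperones, S6 kinases and mTOR pathway genes are 0.06, -0.06 and -0.09.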

How the data were processed

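The authors filtered the reads, aligned them to GRCg7b (HISAT2), assigned them to genes (HTSeq) and deposited the raw counts, which were not normalized. Tool versions and the strand setting are not given in the sources used here. Groups and replicate numbers came from the sample labels. The 9 libraries of SeMC+PBS, LPS and Control were used, and no other column.

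Each comparison was fitted on its 6 libraries over all genes with edgeR 4.0.16 in R 4.3.3 (TMM, filterByExpr with a minimum count of 10, quasi-likelihood test, Benjamini-Hochberg adjustment). The SE beside a log2 fold change is its absolute value divided by the square root of the quasi-likelihood F statistic. A call required both an FDR under 0.05 and more than a 1.5-fold change. The fit relative to the family used the summed ribosomal protein counts as library size. Shares of counts were compared with two-sided exact permutation tests. Counting floors cover counting error only.

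The genes named are those called in any comparison, RPL22, RPL22L1, other paralogues, and, among members with a mean of at least 100 counts, the 5 highest and 5 lowest log2 fold changes in LPS/CTR and in SeMC+PBS/CTR. RPL35A, RPL30, RPS29, RPS6, RPSAP58 and the neighbours of RPL22, as well as genes listed by a count or named as overlapping another gene or from the related lists, were named after their values were seen. Some members that the rule names are counted but not reported here. The family, RPL22 and the lists were chosen with earlier results of these data known.

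Replicates of a group differed by more than sampling noise (chi-square per degree of freedom 3.32 to 8.72 over 11060 genes). Alternatives were RLE size factors, TMM without the members, no filter, DESeq2 1.42.0, limma 3.58.1 with voom, limma after quantile normalization of log2(count + 1), one fit of all 9 libraries, a replicate block, a fold change above 1.2, members without paralogues, shares without the 100 other genes with the highest counts and each library left out. The quantile fit took every gene with a count, without the filter on low counts and without weights by count level. Other steps ran in Python 3.11.15 with scipy 1.17.1, numpy 2.4.6, pandas 2.3.3 and matplotlib 3.10.9. Coordinates are 1-based on GRCg7b from RefSeq.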

Additional observations from a re-analysis of the deposited data

How the results depend on the processing

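RPL22 stayed called in SeMC+PBS/CTR and SeMC+PBS/LPS under every alternative run. In LPS/CTR it was not called under any, but it passed the FDR without LPS library 1 (-0.35, FDR = 0.0395) and without Control library 3 (-0.39, FDR = 0.0232). Its log2 fold change there ranged from -0.39 to -0.05 over all leave-outs of a library. With a fold change above 1.2, 3 genes were called in LPS/CTR, 16 in SeMC+PBS/CTR and 31 in SeMC+PBS/LPS. The shares of all genes were computed only for the main fit and the fit relative to the family. The counts at this threshold and under the alternatives therefore cannot be set against all genes. With limma-voom, 12 genes were higher in LPS/CTR and 1 was called in SeMC+PBS/CTR. With limma after quantile normalization, 0 genes were higher in LPS/CTR (median -0.023), 1 was called, 0 were higher and 4 were lower in SeMC+PBS/CTR, and 1 was higher and 11 were lower in SeMC+PBS/LPS (median -0.13). Without the 100 other genes with the highest counts in the total, the mean family share was 3.13% in SeMC+PBS, 3.46% in LPS and 3.445% in Control. It differed by -0.331 percentage points in SeMC+PBS/LPS and by -0.314 in SeMC+PBS/CTR. The smaller total raises every share, so these differences are not on the scale of those in the whole total. The cause of the differences was not tested. Leaving out each library in turn gave 3 to 16 higher and 0 to 2 lower genes in LPS/CTR, 1 to 3 called, 0 to 1 higher and 18 to 39 lower genes in SeMC+PBS/CTR, and 3 to 5 called and 0 to 1 higher genes in SeMC+PBS/LPS. Where 2 libraries remained, the spread was estimated from both groups.

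Over 9896 genes, the correlation of deviations between libraries of the same number was -0.22 to 0.095, so the numbers were not taken to pair the samples. Over the 70 ribosomal protein genes alone it was 0.17, 0.49 and 0.34 in SeMC+PBS/CTR for numbers 1, 2 and 3, 0.064 to 0.29 in SeMC+PBS/LPS and 0.030 to 0.16 in LPS/CTR. With the replicate number as a block, 1 gene was called in SeMC+PBS/CTR, because RPS27 (-0.57) no longer passed the fold requirement, and 37 were lower, against 28 without it. In SeMC+PBS/LPS, 4 were called with the block, RPS25 (-0.60) being added. RPL35 (-0.16, FDR = 0.0333) and RPS25 (-0.28, FDR = 0.0113) also passed the FDR in SeMC+PBS/CTR with the block, which changed no other call among the genes named. Depth was lowest in SeMC+PBS, and RPL3L was too low to test.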
